A study of Homo sapiens with 18 samples.

Results

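The comparison described here is the difference between the melanoma cell lines CHL1 and A375 in their response to the PRMT5 inhibitor GSK3326595 (PRMT5i). It rests on 8 poly-A RNA libraries in 4 groups of 2 replicates, of 18 libraries in 9 groups in the whole series, which were chosen by the cell line, treatment and time in their labels. The groups were CHL1 with PRMT5i, CHL1 control, A375 with PRMT5i and A375 control, all at 72 hours, with GSK3326595 at 500 nM and DMSO for the controls. The difference was computed for each gene as the log2 fold change of PRMT5i over control in CHL1 minus the same fold change in A375, so that a positive value means a stronger rise or a weaker fall in CHL1. CHL1 is an established line with wild-type BRAF and NRAS, and A375 an established line with mutant BRAF, so that each genotype was represented by 1 line. CHL1 was grown in DMEM and A375 in RPMI, and their 72-hour libraries carry names of different series, so that cell line, medium and library series cannot be told apart. Each treated group was compared with the control of its own line and series. Nothing in the labels says that replicates came from separate cultures, so that p-values measure only the spread between these libraries, which may be technical.

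PRMT5 is the main enzyme that places symmetric dimethyl marks on arginines. It works in a complex with WDR77, and the adaptors CLNS1A, RIOK1 and COPRS direct it to Sm proteins of the spliceosome, to ribosomal proteins and to histones. Loss of its activity impairs splicing, and the splicing of MDM4, a brake on p53, is one of the best known targets. The transcription factor p53 in turn induces genes such as CDKN1A, whose product p21 inhibits cyclin-dependent kinases and so lowers the expression of genes for DNA replication and mitosis that depend on E2F and on the DREAM complex.

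The libraries held between 16213475 and 37424081 counted reads, with the CHL1 libraries deeper than those of A375. Of the melanocytic markers, MITF was measured at 66.2 to 144 CPM (counts scaled to the size of the library) in CHL1 and 108 to 133 CPM in A375, and DCT at 70.4 to 142 CPM in CHL1 but at no more than 0.439 CPM in A375. PMEL, TYR and TYRP1 reached at most 4.02 CPM in any of the 8 libraries. S100B reached 35.5 CPM in CHL1 and lay between 3.57 and 4.37 CPM in A375. There MITF was thus the only one above 5 CPM of the 6 melanocytic markers with counts. SOX10 and MLANA, also on this list of 8, had no row among the counts and were not assessed. For blood only 1 of 4 markers and for endothelium only 1 of 3 had a row. Markers of other cell types were low in both lines apart from PTPRC, at 7.41 to 15.9 CPM in CHL1, LUM, at up to 33.2 CPM in CHL1, KRT18, at up to 47.5 CPM in A375, and PDGFRB and COL1A1, at up to 28.9 and 25.01 CPM in A375.

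Of the 8 libraries compared, both CHL1 PRMT5i libraries stood apart in a trend with GC content. The decile of genes with the most GC was compared with the decile with the least, each as the deviation of log2 CPM from a line's median library. The gap between them was -2.49 and -1.98 for CHL1 with PRMT5i, and between 0.02 and 0.22 for the other 6 libraries. GC content here is that of the longest transcript of a gene. In the decile poorest in GC, with 24.2% to 38.0% GC, the median cell line difference was 1.38 on the log2 scale, and it declined through every decile to -1.45 in the richest, with 61.3% to 83.9% GC. Across 13675 genes the Spearman correlation between the difference and GC content was -0.78, a description over genes that share the same 8 libraries. In CHL1 alone it was -0.82, and in A375 it was 0.18. Outside this comparison, both A375 DMSO controls at 6 days, which held neither CHL1 cells nor PRMT5i, had the same kind of gap, at -2.27 and -1.12, and the 8 libraries with the CDK4/6 inhibitor lay between -0.17 and 0.50. The libraries with the CHL1 and the 6-day A375 samples carry names of the same series, and both groups with the trend are among them, so that the trend was not particular to PRMT5i or to CHL1. For the CHL1 PRMT5i libraries, a response that follows GC content and a property of the libraries cannot be told apart in this design.

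Lists and main genes are therefore described without and with a correction that takes a fitted GC trend out of every library, and a difference given with a standard error is a corrected one. After it, the median difference lay between -0.16 and 0.12 in all deciles, and the correlation with GC content was -0.10 for the difference, -0.11 in CHL1 and 0.02 in A375. The plot of medians by GC content shows both states.

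**Figure D1:**
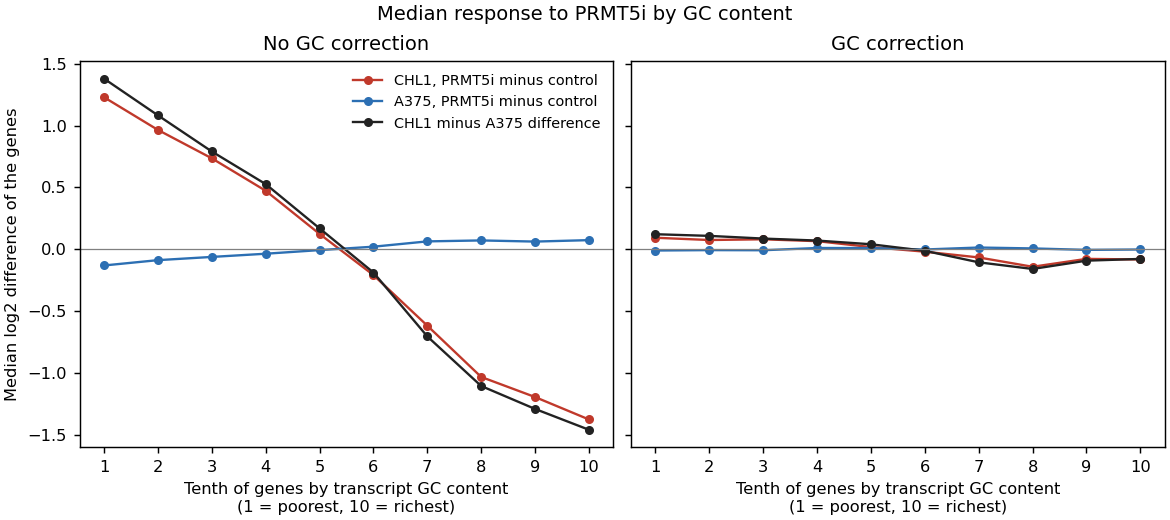
Median log2 difference (vertical axis) of the genes in each decile of transcript GC content (horizontal axis), for PRMT5i minus control in CHL1, in A375 and for the difference between the lines, without (left) and with (right) the GC correction. The CHL1 line and the line of the difference run from 1.23 and 1.38 in the poorest decile to -1.37 and -1.45 in the richest on the left and stay near 0 on the right, while the A375 line runs from -0.13 to 0.08 on the left.

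Without the correction, 8466 of 20705 genes differed between the lines at an edgeR adjusted p below 0.05, 3885 of them higher (18.8% of genes tested) and 4581 lower (22.1%) in CHL1 relative to A375. In CHL1 alone 5134 genes were up-regulated (24.8%) and 5757 down-regulated (27.8%) by PRMT5i, and in A375 247 were up-regulated (1.19%) and 419 down-regulated (2.02%), a ratio of 16.4 between the lines. The correction was made on the 13675 genes that had a GC value and averaged 1 CPM or more. With it, 3742 of these genes differed between the lines, 2013 higher (14.7%) and 1729 lower (12.6%), against 7994 of the same genes without it. CHL1 then had 2516 up-regulated (18.4%) and 2372 down-regulated genes (17.3%), A375 had 700 (5.12%) and 1054 (7.71%), and the ratio was 2.79. On the same genes without the correction the ratio was 13.9. The A375 count was 679 on the same genes without the correction, and it depended strongly on single libraries, since it fell to between 67 and 130 of 20705 when any of the 4 A375 libraries was left out without correction.

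Of the 7994 genes called without the correction, 2716 (34.0%) were called in the same direction with it, 5221 (65.3%) were no longer called and 57 (0.713%) were called in the opposite direction. The median GC content of genes called higher moved from 40.0% to 45.7%, and that of genes called lower from 57.5% to 49.4%. Before the correction, most called genes were called in CHL1 and not in A375, namely 3332 of the higher (85.8% of those called higher over the same genes) and 3748 of the lower (91.2%). After it these were 1242 (61.7%) and 1171 (67.7%), 340 genes were higher by a fall in A375 with no call in CHL1 (16.9% of the 2013), and 228 were lower by a rise in A375 with no call in CHL1 (13.2% of the 1729). A further 209 genes rose in CHL1 and fell in A375, and 99 did the reverse.

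Across the 13404 genes that averaged 1 CPM or more in the 8 libraries, the fold changes of the lines, which share no control, had a Spearman correlation of -0.16 without the correction and -0.02 with it. Of the 462 genes called lower in A375 without the correction, 32.3% had a fold change below 0 in CHL1, against 50.0% of all these genes. Of the 1049 called lower in A375 with it, 52.6% did, against 49.6%. The shift of A375-repressed genes towards a rise in CHL1 was thus seen without the correction only. The sets of A375-repressed genes differ between the states, and a fixed set was not compared.

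The p53 pathway showed a lower response in CHL1 that was almost the same with and without the correction. Of 30 p53 regulators and targets, 20 were lower and 0 higher in CHL1 relative to A375 without the correction, with a median log2 difference of -1.32 against -0.09 over all genes. With it, 21 were lower and 0 higher, with a median of -1.18 against 0.01 over all genes. In A375 26 of the 30 were up-regulated and 0 down-regulated, with a median log2 fold change of 1.05. In CHL1 3 were up-regulated and 7 down-regulated, with a median of -0.14, and this median passed to either side of 0 with the scaling when the correction was not made (-0.06 with TMM, 0.04 with median-of-ratios factors). Leaving out any library kept the number of lower members between 16 and 21 with the correction.

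CDKN1A (chr6:36644237-36655114, GRCh37), which encodes the cell cycle inhibitor p21, was measured at 125 and 131 CPM in the A375 controls and at 410 and 582 CPM with PRMT5i. In CHL1 it was at 19.9 and 18.5 CPM in the controls and at 6.54 and 12.2 CPM with PRMT5i. All A375 libraries lay above all CHL1 libraries, and treated and control libraries did not overlap in either line. With the correction the log2 fold change was 1.86 ± 0.20 (SE) in A375 and 0.01 ± 0.21 in CHL1, and the difference was -1.85 ± 0.29 (adjusted p = 0.00081). Without the correction the difference was -2.99.

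MDM2 (chr12:69201957-69239324), the ubiquitin ligase that degrades p53 and is itself a p53 target, stood at 142 and 156 CPM in the A375 controls and 356 and 436 CPM with PRMT5i. In CHL1 it stood at 130 and 115 CPM in the controls and 216 and 171 CPM with PRMT5i. The CPM thus rose in both lines, and the corrected fold change in CHL1 was -0.15 ± 0.15, since MDM2 has a GC content of 39.5%. The corrected difference was -1.62 ± 0.22 (adjusted p = 0.000449) and the uncorrected difference -0.75.

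BTG2 (chr1:203274619-203278730), an antiproliferative p53 target, had the most negative difference of the 30 members. It was at 11.5 and 15.6 CPM in the A375 controls and 53.4 and 88.8 CPM with PRMT5i, and at 10.3 and 11.2 CPM in the CHL1 controls and 3.42 and 3.12 CPM with PRMT5i. The lines therefore moved in opposite directions from similar control levels, with a corrected difference of -3.66 ± 0.34 (adjusted p = 7.49e-05) and fold changes of 2.33 in A375 and -1.33 in CHL1, both called. The cyclin G gene CCNG1 was called up-regulated in A375 and down-regulated in CHL1 with the correction and in neither line without it (adjusted p = 0.0574 and 0.0777), at 13.0 and 13.4 CPM in A375 controls, 20.1 and 26.4 CPM with PRMT5i, 3.35 and 2.31 CPM in CHL1 controls and 1.71 and 2.12 CPM with PRMT5i, with a difference of -2.42 with the correction and -1.38 without it. FAS, a death receptor, rose in A375 from 12.0 and 13.2 CPM to 29.2 and 35.3 CPM and lay between 0.691 and 1.10 CPM in all 4 CHL1 libraries, which is 20 to 31 counts, with a difference of -2.22 with the correction and -1.31 without it.

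MDM4, the brake on p53 named above, lay at 101 and 103 CPM in CHL1 controls, 159 and 123 CPM with PRMT5i, 183 and 162 CPM in A375 controls and 179 and 142 CPM with PRMT5i. Its corrected difference was 0.04 ± 0.20 (adjusted p = 0.912), and gene counts do not show which of its exons were used.

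**Figure D2:**
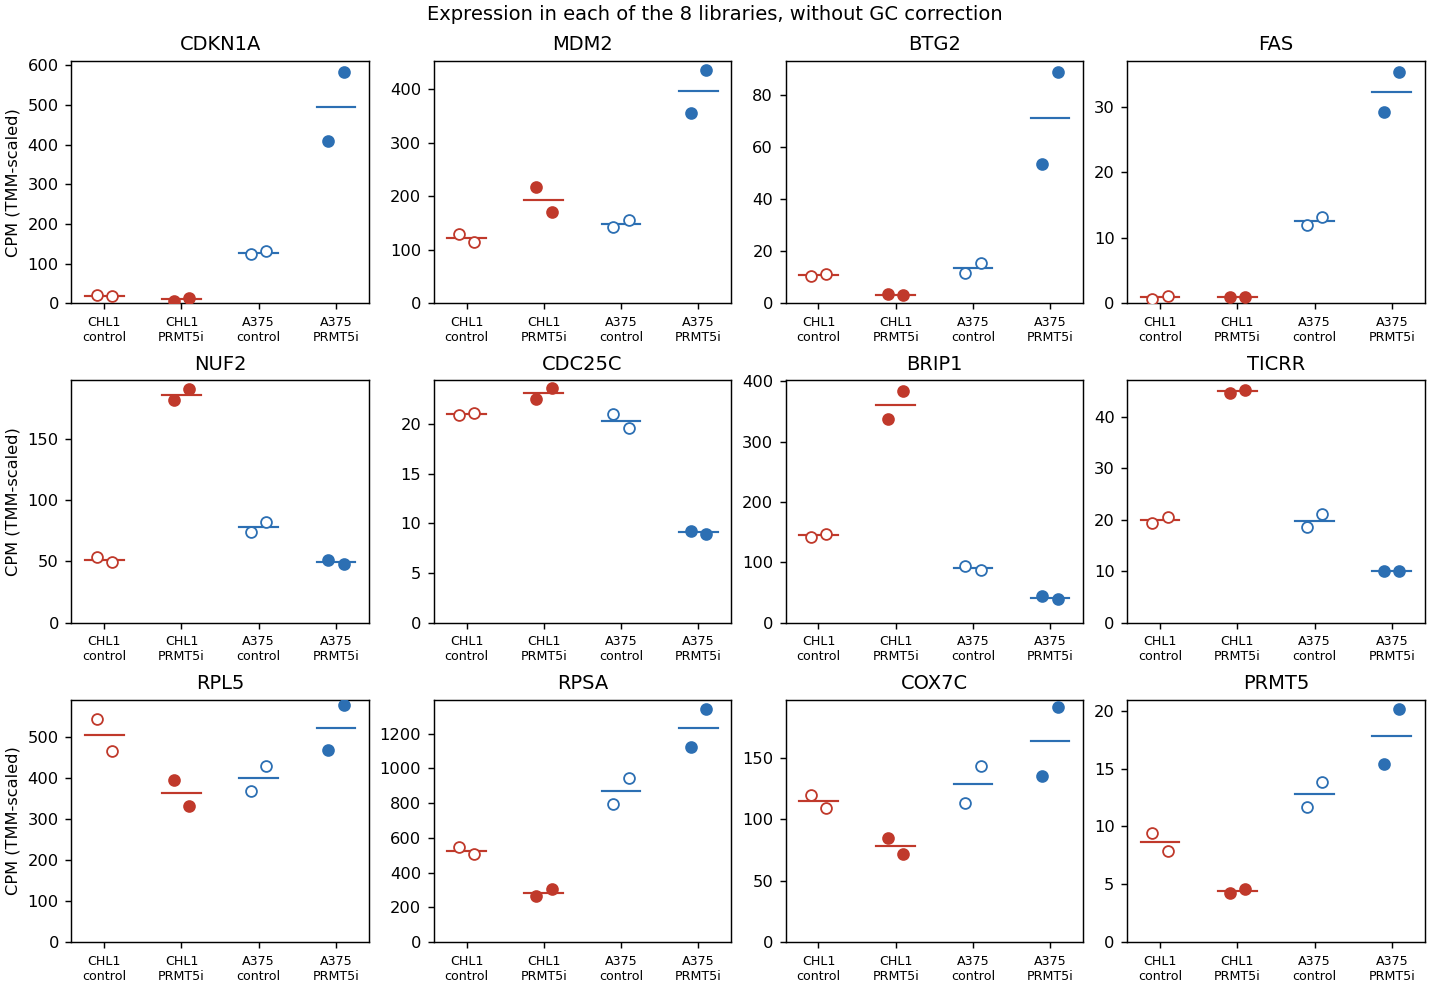
CPM (vertical axis, from 0) of 12 genes in each of the 8 libraries (points) with the mean of each group of 2 (lines), without the GC correction. CDKN1A rises from 125 and 131 to 410 and 582 CPM in A375 alone, NUF2 from 53.5 and 49.4 to 182 and 191 CPM in CHL1, and TICRR from 19.4 and 20.6 to 44.6 and 45.3 CPM in CHL1 while it falls from 18.5 and 21.1 to 10.1 CPM in both treated A375 libraries.

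Genes of mitosis, homologous recombination and DNA replication were higher in CHL1 relative to A375 in both states, and the corrected part of this came mostly from a fall in A375. Of 62 mitosis genes, 38 were higher and 3 lower without the correction, with a median difference of 1.303, and 44 were higher and 0 lower with it, with a median of 0.81. In A375 53 of the 62 were down-regulated and 0 up-regulated, with a median log2 fold change of -0.78. In CHL1 10 rose and 10 fell, with a median of 0.01, whereas without the correction 31 rose and 16 fell, with a median of 0.43. With GC content averaged over all transcripts of a gene, the CHL1 median was -0.16 and that of the difference 0.61. The summed level of the list went from 7734 and 9015 CPM to 4987 and 5154 CPM in A375, and from 8226 and 7362 CPM to 12693 and 10492 CPM in CHL1. In such bulk libraries fewer cells in a phase of the cycle and less RNA per cell cannot be told apart.

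NUF2 (chr1:163236366-163325554), a subunit of the kinetochore complex that binds microtubules, was measured at 53.5 and 49.4 CPM in CHL1 controls and 182 and 191 CPM with PRMT5i, and at 73.8 and 81.8 CPM in A375 controls and 50.7 and 48.0 CPM with PRMT5i. The groups did not overlap in either line, and the lines moved in opposite directions. The difference was 2.51 without the correction and 1.57 ± 0.15 with it (adjusted p = 7.49e-05), of which 0.98 was a rise in CHL1 and 0.59 a fall in A375. TTK, a spindle checkpoint kinase, had the largest corrected difference of the list, at 1.67 ± 0.20, with 98.7 and 83.6 CPM in CHL1 controls, 359 and 297 CPM with PRMT5i, 47.0 and 58.1 CPM in A375 controls and 35.6 and 37.1 CPM with PRMT5i. CDC25C, a phosphatase that activates CDK1, changed in A375 only by the test in each line, from 21.0 and 19.6 CPM to 9.27 and 8.93 CPM, while CHL1 had 21.0 and 21.2 CPM in controls and 22.6 and 23.7 CPM with PRMT5i. Its difference was itself called, at 1.41 ± 0.17 with the correction and 1.29 without it. CCNA2, which encodes cyclin A, was at 68.9 and 56.2 CPM in CHL1 controls, 115 and 96.0 CPM with PRMT5i, 72.6 and 96.4 CPM in A375 controls and 41.6 and 46.0 CPM with PRMT5i, with a corrected difference of 1.13 ± 0.22 and 1.71 without the correction.

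The mitosis list was not uniform. With the correction 18 of its 62 members were not called, and CCNB1, PLK1 and AURKA, named here after their values were seen, were among them, with corrected differences of 0.08, 0.42 and 0.40. The 18 kinases and cyclins had a median corrected difference of 0.73, with 13 higher, and the 44 spindle, kinetochore and chromosome genes a median of 0.84, with 31 higher.

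Promoters of mitosis genes often hold a CCAAT box and a cell cycle homology region, the element through which DREAM and MuvB complexes act, and they are shown here because members of this list moved together in A375. The letters CCAAT for the CCAAT box and TTTGAA for the cell cycle homology region, with TTTGGCGC or else TTTCCCGC for E2F sites, were searched on both strands, with no overlap between motifs required or excluded, in the RefSeq promoters of build GRCh38.p14, which reach from 250 bases before to 50 bases after the start of each gene. TTK had no entry. CDC25C is not shown, since named members were printed only where they had an entry and a match. The promoters of CCNA2 and NUF2, the named members with a match, and of SPC25 and NUSAP1, the members with both CCAAT and TTTGAA that had the largest corrected difference, lie at chr4:121823834-121824133 (reverse strand), chr1:163321704-163322003 (forward), chr2:168890381-168890680 (reverse) and chr15:41332631-41332930 (forward) and read as follows from 5′ to 3′, with matches to these motifs in capitals.
CCNA2: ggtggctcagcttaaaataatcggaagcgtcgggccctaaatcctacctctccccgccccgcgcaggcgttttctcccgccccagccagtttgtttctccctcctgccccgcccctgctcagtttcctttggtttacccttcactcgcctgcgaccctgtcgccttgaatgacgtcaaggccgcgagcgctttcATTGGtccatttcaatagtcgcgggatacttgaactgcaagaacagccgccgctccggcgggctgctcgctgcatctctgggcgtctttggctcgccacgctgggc
NUF2: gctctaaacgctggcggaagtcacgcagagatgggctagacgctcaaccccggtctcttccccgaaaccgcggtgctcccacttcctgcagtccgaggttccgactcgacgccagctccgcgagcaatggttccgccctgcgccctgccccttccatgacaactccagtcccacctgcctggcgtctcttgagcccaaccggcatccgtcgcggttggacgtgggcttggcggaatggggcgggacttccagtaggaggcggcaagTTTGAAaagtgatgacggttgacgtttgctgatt
SPC25: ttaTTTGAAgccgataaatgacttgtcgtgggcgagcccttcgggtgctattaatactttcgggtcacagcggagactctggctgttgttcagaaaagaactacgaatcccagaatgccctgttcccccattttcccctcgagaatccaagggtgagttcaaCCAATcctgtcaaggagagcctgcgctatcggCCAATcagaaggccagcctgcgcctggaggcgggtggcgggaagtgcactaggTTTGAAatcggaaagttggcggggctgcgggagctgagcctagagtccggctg
NUSAP1: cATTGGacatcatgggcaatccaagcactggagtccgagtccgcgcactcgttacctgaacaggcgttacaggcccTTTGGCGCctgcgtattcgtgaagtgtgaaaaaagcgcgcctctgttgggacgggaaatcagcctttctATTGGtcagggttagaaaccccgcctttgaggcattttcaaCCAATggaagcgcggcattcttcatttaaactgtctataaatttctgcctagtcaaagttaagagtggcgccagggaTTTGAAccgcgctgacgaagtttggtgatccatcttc

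CCNA2 holds CCAAT on the reverse strand at -56 from the start, and NUF2 holds TTTGAA at 16. SPC25 holds TTTGAA at -247 and -3 and CCAAT at -88 and -56. NUSAP1 holds CCAAT on either strand at -249, -105 and -64, TTTGAA at 13 and an E2F site at -174. SPC25, a partner of NUF2 in its complex, was at 49.7 and 46.0 CPM in CHL1 controls, 125 and 83.9 CPM with PRMT5i, 11.0 and 13.0 CPM in A375 controls and 5.92 and 5.28 CPM with PRMT5i. NUSAP1, a spindle protein, was at 102 and 100.3 CPM, 135 and 85.9 CPM, 118 and 139 CPM, and 66.8 CPM in both libraries of these groups in the same order. Of the 54 mitosis genes with a promoter entry, 35 (64.8%) held TTTGAA and 24 (44.4%) held it together with CCAAT, against 10.2% and 4.34% of the 10719 tested genes with an entry and 15.4% and 6.08% of all 27305 promoters. Of the 43 DNA replication genes with an entry, 16 (37.2%) held an E2F match and 2 (4.65%) TTTGAA, against 3.51% and 10.2% of tested genes. Of the 45 replication-dependent histone genes with an entry, 21 (46.7%) held TTTGAA and 17 (37.8%) held it together with CCAAT. The motif pair was thus not particular to the mitosis list, and the histone list had a median corrected difference of -0.24. Among all tested genes with both CCAAT and TTTGAA, the median corrected difference was 0.17 and 23.0% were higher, against -0.01 and 14.4% of the 5992 genes with none of the motifs. The genes with both include the mitosis members that led to the search, so that their value is not independent of that list. Of all tested genes with TTTGAA 20.1% were higher, of those with an E2F match 23.1% and of those with CCAAT 15.4%. A match is a description of these letters in this window and says nothing of binding.

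Of 41 genes of homologous recombination and the Fanconi anaemia pathway, which repair DNA breaks and crosslinks, 29 were higher and 1 lower without the correction, with a median of 1.32, and 24 were higher and 0 lower with it, with a median of 0.71. In A375 26 fell and 1 rose (median -0.62), and in CHL1 14 rose and 3 fell with the correction (median 0.13), against 28 and 7 without it (median 0.73). With GC content averaged over all transcripts of a gene, the CHL1 median was -0.02 and that of the difference 0.59. NEIL3, a DNA glycosylase that acts on crosslinks, was at 27.7 and 29.6 CPM in CHL1 controls and 65.2 and 64.8 CPM with PRMT5i, and at 28.0 and 29.5 CPM in A375 controls and 14.4 and 10.1 CPM with PRMT5i. From nearly equal control levels it rose in CHL1 and fell in A375, with a corrected difference of 1.75 ± 0.22 (adjusted p = 0.000338).

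BRIP1 (chr17:59756500-59940920), a helicase that works with BRCA1, rose in CHL1 from 142 and 146 CPM to 338 and 384 CPM and fell in A375 from 93.3 and 87.1 CPM to 43.3 and 39.3 CPM. The uncorrected difference was 2.45 and the corrected 1.39 ± 0.17, since its GC content is 37.8%, and the corrected fold changes were 0.34 in CHL1 and -1.05 in A375, both called. BARD1, the partner of BRCA1, had levels of 103 and 93.2 CPM in CHL1 controls and 203 and 191 CPM with PRMT5i, with a corrected fold change of 0.03 ± 0.09 in CHL1, and fell in A375 from 50.9 and 50.5 CPM to 26.0 and 24.9 CPM, by 0.91 on the log2 scale. Its difference of 0.95 ± 0.13 was 1.55 when GC content was averaged over all its transcripts, so that its corrected value depends on the GC value used. FANCC, of the Fanconi core complex, had a corrected difference of 1.57 ± 0.22 (0.94 without the correction), which was 0.51 and not called (adjusted p = 0.0791) when GC content was averaged over all its transcripts.

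Of 50 DNA replication genes, 23 were higher and 5 lower without the correction and 21 higher and 1 lower with it, with medians of 0.41 in both states. In A375 34 fell and 0 rose with the correction (median -0.56). In CHL1 6 rose and 15 fell with it (median -0.18), against 17 and 21 without it (median -0.16). Of all genes tested with the correction, 18.4% rose and 17.3% fell in CHL1. With the correction the list thus leaned down in both lines and further in A375. TICRR (chr15:90118700-90174287), which activates replication origins, had the largest difference, with 19.4 and 20.6 CPM in CHL1 controls, 44.6 and 45.3 CPM with PRMT5i, 18.5 and 21.1 CPM in A375 controls and 10.1 CPM in both treated libraries. The corrected difference was 2.77 ± 0.26 (adjusted p = 7.49e-05) and the uncorrected 2.14, and it was among the 10 largest of all genes that met the naming rule. POLE2, a subunit of DNA polymerase epsilon, and GMNN, the inhibitor of origin licensing geminin, had corrected differences of 1.48 ± 0.19 and 1.18 ± 0.21, and both rose in CHL1. On GC content averaged over transcripts their differences were 0.68 and 0.65 (adjusted p = 0.0231 and 0.0217). CDC45, of the replicative helicase, was at 55.4 and 53.9 CPM in CHL1 controls, 32.9 and 37.5 CPM with PRMT5i, 43.1 and 44.2 CPM in A375 controls and 22.4 and 22.3 CPM with PRMT5i. Its difference was not called without the correction (0.33, adjusted p = 0.306) and was 0.94 ± 0.14 with it (adjusted p = 0.000756). E2F2, an activator of this programme, likewise went from -0.12 to 1.00 ± 0.27 (adjusted p = 0.0138), a call lost without 1 of the 8 libraries, A375 PRMT5i replicate 2 (adjusted p = 0.0713), and on GC content averaged over transcripts (0.52, adjusted p = 0.203).

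**Figure D3:**
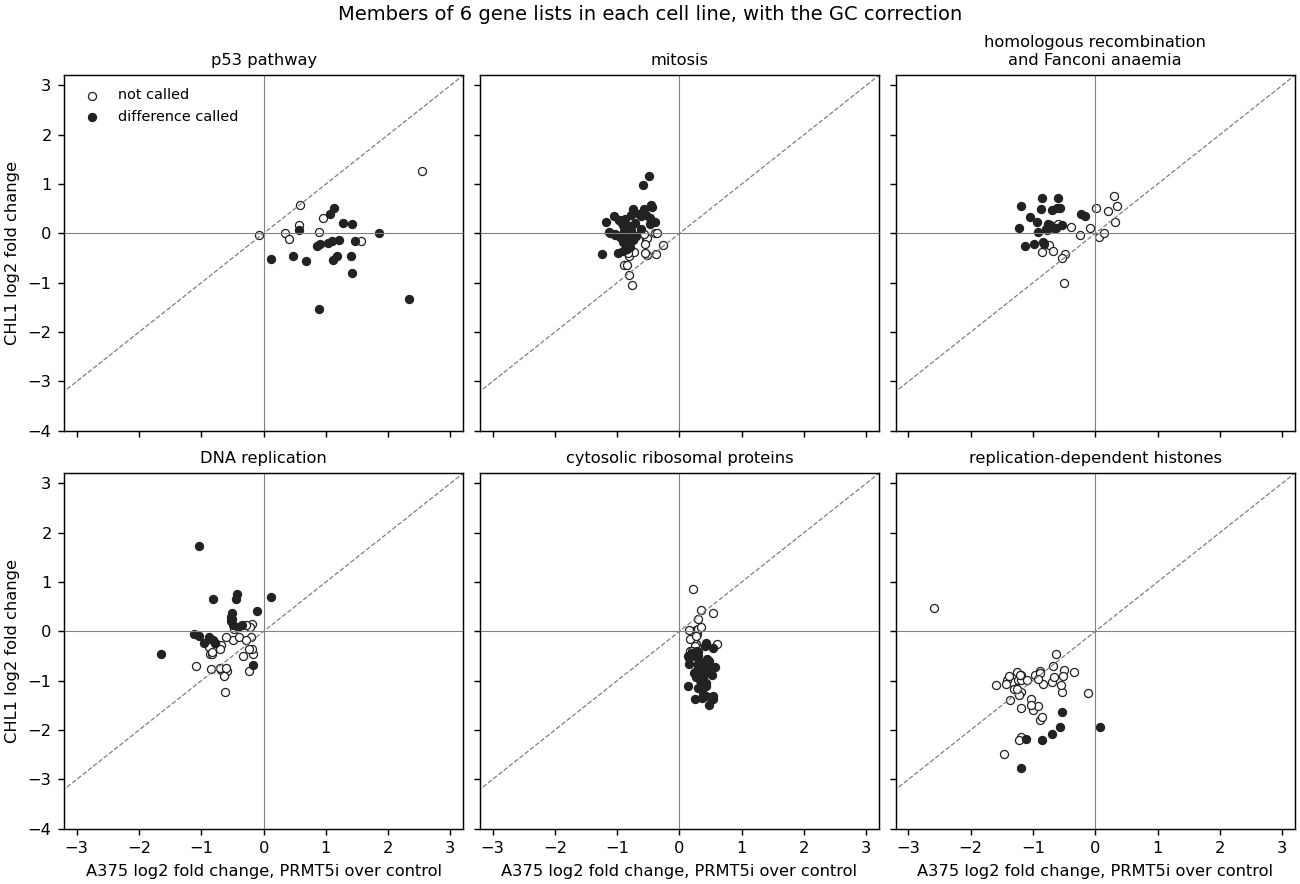
Corrected log2 fold change of PRMT5i over control in CHL1 (vertical axis) against A375 (horizontal axis) for the members of 6 gene lists, 1 point a gene, filled where the difference between the lines was called. Genes on the dashed line changed alike in both lines. Most p53 genes lie to the right of 0, with 26 of 30 up-regulated in A375, the mitosis genes to the left, with 53 of 62 down-regulated, most ribosomal protein genes below the dashed line, and most histone genes below 0 on both axes.

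Cytosolic ribosomal protein genes were lower in CHL1 relative to A375. Of 71 in the table, 55 were lower and 0 higher without the correction, with a median of -1.38, and of the 70 tested with it 50 were lower and 0 higher, with a median of -0.99. In CHL1 45 fell and 1 rose (median -0.63), and in A375 1 rose and 0 fell (median 0.31). The genes of the large subunit (29 of 40 lower, median -1.005) and of the small subunit (21 of 30, median -0.94) gave similar values. Their summed level went from 20062 and 16812 CPM to 9642 and 9852 CPM in CHL1 and from 26716 and 31180 CPM to 32714 and 41419 CPM in A375. Many of these genes have near-identical processed pseudogenes with which reads can be shared or discarded, so that single members are uncertain. Across genes, the correlation of the corrected difference with transcript length was 0.10, and the mRNAs of this list are short. After a correction for length and abundance as well, 48 members were lower and 1 higher, with a median of -0.81. RPL5 was at 544 and 466 CPM in CHL1 controls, 395 and 332 CPM with PRMT5i, 368 and 430 CPM in A375 controls and 467 and 578 CPM with PRMT5i, with a corrected difference of -1.96 ± 0.34 (adjusted p = 0.00151) and an uncorrected one of -0.86. RPSA, at 548 and 506 CPM, 263 and 304 CPM, 794 and 946 CPM, and 1123 and 1341 CPM in the same order, differed by -1.85 ± 0.31. RPS27 differed by -1.91 ± 0.36.

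Of 64 genes of oxidative phosphorylation, 36 were lower and 3 higher without the correction (median -0.73) and 40 lower and 4 higher with it (median -0.79). In CHL1 36 fell and 6 rose, and in A375 5 rose and 0 fell. COX7C, of cytochrome c oxidase, was at 119 and 109 CPM in CHL1 controls, 84.4 and 71.2 CPM with PRMT5i, 114 and 143 CPM in A375 controls and 135 and 191 CPM with PRMT5i, and differed by -1.84 ± 0.30 (adjusted p = 0.00115), against -0.90 without the correction. UQCRQ and ATP5G3 differed by -1.71 each (-1.78 and -0.72 without the correction), and NDUFS4, of complex I, by 0.75 ± 0.14 in the other direction (1.23 without the correction, and 0.46 on GC content averaged over transcripts). Of 32 genes of ribosome biogenesis and MYC, 14 were lower and 0 higher with the correction, with a median of -0.51, against 18 lower and 3 higher without it. NOP10, of the small nucleolar complex that modifies ribosomal RNA, was at 42.0 and 40.1 CPM in CHL1 controls, 24.9 and 26.2 CPM with PRMT5i, 28.1 and 35.3 CPM in A375 controls and 41.4 and 68.4 CPM with PRMT5i, and differed by -1.92 ± 0.38. POLR1C differed by -1.36 ± 0.28 and DKC1 by -0.98 ± 0.29, a call that was lost without 4 of the 8 libraries, with adjusted p up to 0.0939.

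**Figure D4:**
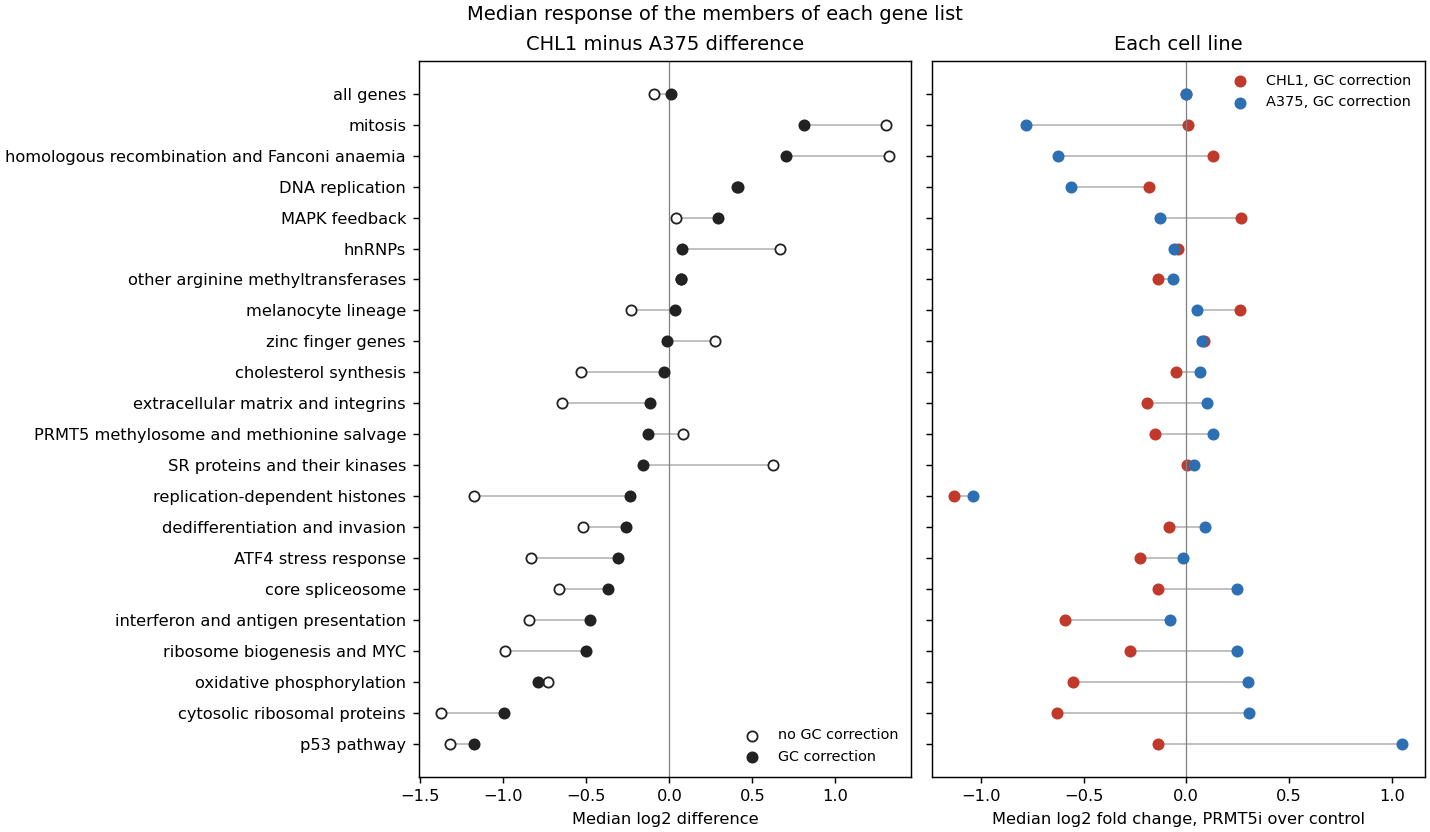
Median log2 values of the members of each gene list and of all genes tested. The left panel shows the difference between the lines without (open) and with (filled) the GC correction. The right panel shows the corrected log2 fold change of each line. Open points cover all counted members of a list, and filled points only those tested with the correction. Without the correction, the melanocyte median was -0.23 over 19 genes but 0.73 over the 15 tested with it. The interferon median was -0.85 over 31 genes and -1.15 over the 27 tested with it. The p53 (-1.32 and -1.18), mitosis (1.303 and 0.81) and ribosomal protein (-1.38 and -0.99) lists stay far from 0 in both states, while the histone list moves from -1.18 to -0.24 and lies at -1.13 in CHL1 and -1.04 in A375.

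Several lists had fewer calls with the correction than without it. The replication-dependent histone genes, which have a median GC content of 56.0%, were the clearest case. Of 53 in the table, 34 were lower and 0 higher without the correction (median -1.18), and of the 50 tested with it 7 were lower and 0 higher (median -0.24). The share called lower with the correction was near the 12.6% of all genes tested. The histone genes fell in both lines, since 48 of the 50 were down-regulated in CHL1 (median -1.13) and 38 in A375 (median -1.04). Their summed level went from 4766 and 3847 CPM to 904 and 1320 CPM in CHL1 and from 5805 and 7657 CPM to 3065 and 4155 CPM in A375. These transcripts lack poly-A tails for the most part, so that a poly-A library holds an unknown share of them. The 7 members called with the correction were 5 of 14 H2B and 2 of 9 H4 genes, with 0 of the H1, H2A and H3 genes, and 1 of them, HIST1H2BN, named after its values were seen, was not called without it (-0.51, adjusted p = 0.198). HIST4H4 differed by -1.999 ± 0.49, with -1.03 and no call (adjusted p = 0.0562) when GC content was averaged over transcripts, HIST3H2BB by -1.59 ± 0.45 and HIST2H2BE by -1.37 ± 0.39, and the last 2 calls were lost without 4 of the 8 libraries each, with adjusted p up to 0.0881 and 0.102.

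The hnRNPs and the SR proteins with their kinases, which select splice sites, changed from lists that leaned higher to lists with as many members up as down. Their corrected shares of called members were near those of all genes tested, of which 14.7% were higher and 12.6% lower. Of 22 hnRNPs, 10 were higher and 4 lower without the correction (median 0.66), and 3 were higher and 3 lower with it (median 0.07). Of 20 SR proteins and kinases, 9 were higher and 4 lower without it (median 0.63), and 3 were higher and 3 lower with it (median -0.16). On GC content averaged over transcripts the SR median turned to 0.21, and that of the hnRNPs was 0.06. HNRNPH3 was measured at 31.7 and 30.1 CPM in CHL1 controls and 123 and 145 CPM with PRMT5i and at 14.7 to 19.96 CPM in all A375 libraries, with a corrected difference of 1.49 ± 0.24 (adjusted p = 0.000914). PTBP2, a repressor of neuronal exons, differed by 0.83 ± 0.15 with the correction and 2.19 without it. SRSF1, the founding SR protein, was at 107 and 91.2 CPM in CHL1 controls, 49.8 and 51.4 CPM with PRMT5i, 129 and 153 CPM in A375 controls and 122 and 170 CPM with PRMT5i, and differed by -1.98 ± 0.39 (adjusted p = 0.00288), against -1.02 without the correction and -1.28 on GC content averaged over transcripts. TRA2A and TRA2B were higher by 0.76 and 0.50 (1.42 and 1.26 without the correction), calls that were lost without 3 and 7 of the 8 libraries (adjusted p up to 0.068 and 0.114) and, for TRA2A, on GC content averaged over transcripts (0.44, adjusted p = 0.0806). The gains of SRPK1 (0.55) and losses of CLK3 (-1.45) were not called on GC content averaged over transcripts, at 0.15 and -0.43 (adjusted p = 0.442 and 0.0585). HNRNPLL and HNRNPL differed by 0.58 and -0.74 (1.58 and -1.10 without the correction), calls that were lost without 5 and 2 of the 8 libraries, with adjusted p up to 0.118 and 0.0554.

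Of 56 core spliceosome genes, 27 were lower and 7 higher without the correction (median -0.66), and of the 55 tested with it 14 were lower and 2 higher (median -0.37). Of all genes tested with the correction, 12.6% were lower and 14.7% higher. The Sm and LSm proteins, which include substrates of PRMT5, had 3 lower and 0 higher of 16 (median -0.29). Their share of lower members was thus near that of all genes tested. The other snRNP proteins had 11 lower and 2 higher of 39 (median -0.40). SNRNP27 was low throughout, at 2.78 to 5.63 CPM in the 8 libraries, and differed by -2.25 ± 0.52 (-1.21 without the correction). PRPF38A differed by -1.75 ± 0.30 (-0.95 without the correction). PRPF38B was higher by 0.47 ± 0.16 (1.11 without the correction), a call that was lost without 7 of the 8 libraries (adjusted p up to 0.166) and on GC content averaged over transcripts (0.32, adjusted p = 0.147). SF3B2 was at 153 and 129 CPM in CHL1 controls, 64.0 and 79.2 CPM with PRMT5i, 176 and 212 CPM in A375 controls and 214 and 300.3 CPM with PRMT5i, and differed by -1.50 ± 0.29, with -0.31 and no call (adjusted p = 0.239) on GC content averaged over transcripts.

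Of the 5 methylosome genes, which form the target complex, 3 were lower and 1 higher without the correction and 2 lower and 0 higher with it. PRMT5 (chr14:23389734-23398617) was at 9.46 and 7.91 CPM in CHL1 controls, 4.26 and 4.55 CPM with PRMT5i, 11.7 and 13.9 CPM in A375 controls and 15.4 and 20.2 CPM with PRMT5i. Its difference was -1.46 without the correction and -0.84 ± 0.25 with it (adjusted p = 0.023). By the test in each line, PRMT5 was called down-regulated in CHL1 without the correction (adjusted p = 0.00199) and was not called in A375. With the correction it was called in neither line. When each of the 8 libraries was left out in turn, the corrected difference lay between -1.001 and -0.667. Its call was lost in 5 of these 8 fits. WDR77 differed by -0.70 ± 0.18, a call that was lost without 2 of the 8 (adjusted p up to 0.0704) and on GC content averaged over transcripts (-0.40, adjusted p = 0.109). CLNS1A, RIOK1 and COPRS had corrected differences of -0.07, -0.33 and -0.06, none of them called. Of the 11 genes of methionine salvage and S-adenosylmethionine, which supply the methyl donor, 1 was higher (APIP, 0.52) and 3 lower, among them MRI1 (-0.61), against 1.10 and -1.37 for these genes without the correction. Both of these calls were lost without most single libraries (8 and 7 of 8, adjusted p up to 0.137 and 0.19) and on GC content averaged over transcripts (0.07 and 0.04). Of the 8 other arginine methyltransferases, 3 were higher and 3 lower without the correction, and 0 of the 7 tested with it were called. MTAP was not analysed here.

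MITF, the master regulator of melanocytes, differed by 0.68 without the correction (adjusted p = 0.0364) and by 0.03 ± 0.16 with it (adjusted p = 0.912). Of 19 melanocyte lineage genes, 6 were higher and 3 lower without the correction, and of the 15 tested with it 2 were higher and 2 lower, a share near that of all genes tested. PAX3, which acts upstream of MITF, was at 134 and 152 CPM in CHL1 controls, 261 and 254 CPM with PRMT5i, 44.9 and 44.3 CPM in A375 controls and 29.4 and 32.4 CPM with PRMT5i, and differed by 1.76 ± 0.22 (adjusted p = 0.000327). RAB38 (0.92, and 0.94 without the correction) and ERBB3 (-0.87 and -1.56) lost their calls without 7 and 8 of the 8 libraries (adjusted p up to 0.118 and 0.108), and RAB38 also on GC content averaged over transcripts (adjusted p = 0.0504). DCT, which had 0 counts in both A375 controls and 8 and 4 counts with PRMT5i, was called lower in CHL1 relative to A375, a call lost without 3 of the 8 libraries (adjusted p up to 0.0743), but a fold change from 0 counts depends on the prior count of the fit and is not given as a size here. Of the 19 genes of MAPK feedback, which report on BRAF and ERK signalling, 3 were higher and 5 lower without the correction and 6 higher and 1 lower with it (median 0.29). PHLDA1 was at 40.4 and 44.1 CPM in CHL1 controls, 135 and 150.1 CPM with PRMT5i and 580 to 638 CPM in the A375 libraries, and differed by 1.22 ± 0.39, a call that was lost without 7 of the 8 libraries (adjusted p up to 0.0968) and on GC content averaged over transcripts (adjusted p = 0.0699). IER3 differed by -1.24 ± 0.27 (-2.44 without the correction).

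Of 31 interferon and antigen presentation genes, 16 were lower and 3 higher without the correction, and of the 27 tested with it 9 were lower and 0 higher (median -0.48), 6 of them among the 11 MHC class I genes. The immunoproteasome gene PSMB9 was at 1.80 and 1.99 CPM in CHL1 controls, 0.469 and 0.430 CPM with PRMT5i and between 11.0 and 13.1 CPM in all A375 libraries, and differed by -2.02 ± 0.41. The antiviral gene MX2, at 14.1 and 17.4 CPM in CHL1 controls and 5.80 and 6.42 CPM with PRMT5i, with 59.0 to 72.8 CPM in A375, differed by -1.08 ± 0.23, and PSMB8 by -0.91 ± 0.27 (-1.72 without the correction), a call that was lost without 4 of the 8 libraries (adjusted p up to 0.108). These genes fell in CHL1 and were not called in A375. Of 33 extracellular matrix and integrin genes tested with the correction, 8 were lower and 3 higher (16 and 3 of 34 without it). Collagen I (COL1A1) rose in A375 from 10.5 and 10.7 CPM to 24.4 and 25.01 CPM and was at 1.42 and 1.63 CPM in CHL1 controls and 0.201 and 0.430 CPM with PRMT5i, and the membrane metalloproteinase gene MMP15 rose in A375 from 4.88 and 4.89 CPM to 10.6 and 12.9 CPM and went from 105 and 99.3 CPM to 23.3 and 39.2 CPM in CHL1, with differences of -2.16 ± 0.40 and -1.50 ± 0.33 with the correction and -3.48 and -2.97 without it. SPARC differed by -1.30 ± 0.37, a call that was lost without 4 of the 8 libraries (adjusted p up to 0.0892) and on GC content averaged over transcripts (-0.47, adjusted p = 0.44).

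Among all genes tested with the correction, 14.7% were higher and 12.6% lower. The corrected shares of the cholesterol synthesis, ATF4 stress, dedifferentiation and zinc finger lists were near or below these. Of 23 cholesterol synthesis genes, 11 were lower and 4 higher without the correction and 2 lower and 1 higher with it, with TM7SF2, a sterol reductase, at -1.39 ± 0.28 (-2.82 without the correction). Of 23 genes of the ATF4 stress response, 11 were lower and 3 higher without the correction (median -0.83), and of the 22 tested with it 3 were lower and 0 higher (median -0.31), with the chaperone HSPA5 at -1.48 ± 0.24. Of 20 genes of dedifferentiation and invasion, 5 were lower and 1 higher without it (median -0.52), and of the 19 tested with it 2 were lower and 0 higher (median -0.26), with TGFBI at -1.52 ± 0.25. Of 457 zinc finger genes, with a median GC content of 42.6%, 133 were higher and 76 lower without the correction (median 0.27), and of the 421 tested with it 52 were higher and 36 lower (median -0.01). ZNF367, ZNF343 and ZNF133 were the highest of them, at 1.79, 1.70 and 1.41, of which ZNF343 lost its call without 2 of the 8 libraries (adjusted p up to 0.0642), and ZNF480, ZNF259 and ZNF70 the lowest, at -2.90, -1.40 and -1.33 (-1.81, -1.30 and -1.87 without the correction).

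The genes with the largest differences that were called in both states, with a mean of at least 5 CPM and no overlap between the lines, were led on the higher side by RNF165, EEF1DP3, PURG, FAM189A1 and PCBP1. RNF165 had at most 5 counts in any CHL1 library and 178 to 472 counts in A375, so that its size is not given, and its call was lost without 2 of the 8 libraries, CHL1 control replicate 1 and CHL1 PRMT5i replicate 1 (adjusted p = 0.0698 and 0.135). EEF1DP3 and GUSBP9 are pseudogenes that share sequence with their parent genes, which makes their counts uncertain, and differed by 3.52 and 2.53 (2.23 and 1.88 without the correction). PURG was at 9.43 and 11.8 CPM in CHL1 controls, 12.2 and 20.9 CPM with PRMT5i, 1.01 and 1.12 CPM in A375 controls and 0.329 and 0.364 CPM with PRMT5i, which is 6 counts in each of the last 2, and its difference of 3.04 was not called without A375 PRMT5i replicate 2 (adjusted p = 0.0512). FAM189A1 rose in CHL1 from 529 and 726 CPM to 1048 and 1358 CPM and was at 4.31 to 8.88 CPM in A375, with a difference of 2.99 ± 0.45 (1.65 without the correction). PCBP1, an intronless gene for an RNA-binding protein with close paralogues, differed by 2.77 ± 0.57. The growth factor gene BMP2 was at 15.7 and 8.26 CPM in CHL1 controls, 30.3 and 27.0 CPM with PRMT5i, 22.0 and 28.3 CPM in A375 controls and 13.9 and 17.7 CPM with PRMT5i, and differed by 2.57 ± 0.46. DFNB31, which encodes whirlin, differed by 2.54 ± 0.30 (1.03 without the correction). The row named NAA38, at 2.59 (1.37 without the correction), bears a symbol that older annotations gave to LSM8, so that its GC value may be that of another gene.

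On the lower side BTG2, CCNG1 and FAS of the p53 list stood among the 10 named genes, beside MOG, ACKR3, CPM, DUSP8, FAM198B, C7orf49 and HES2. The gene CPM, which encodes carboxypeptidase M, was at 17.6 and 15.5 scaled counts in CHL1 controls, 14.4 and 12.6 with PRMT5i, 9.80 and 7.72 in A375 controls and 36.4 and 34.9 with PRMT5i, and differed by -2.90 ± 0.30 (adjusted p = 0.000114). Its locus (chr12:69235977-69365350, reverse strand) overlaps the end of MDM2 (chr12:69201957-69239324, forward), which also rose in A375. Strandedness is not given, so that reads in the overlap cannot be assigned to either gene with certainty. FAM198B rose in A375 from 2.65 and 2.30 CPM to 11.7 and 15.2 CPM and was at 1.31 to 3.08 CPM in CHL1, with a difference of -2.52 ± 0.36. DUSP8, a phosphatase of MAP kinases, rose in A375 from 0.338 and 0.293 CPM to 2.14 and 2.31 CPM and was at 21.8 and 22.4 CPM in CHL1 controls and 5.00 and 11.5 CPM with PRMT5i. Its difference was -2.78 ± 0.44 (-4.22 without the correction), and its corrected fold change in CHL1 -0.10, at a GC content of 66.3%. HES2 differed by -2.37 ± 0.44, with a rise in A375 and a fall in CHL1. C7orf49 fell in CHL1 from 18.8 and 15.8 CPM to 5.70 and 9.32 CPM and lay at 20.8 to 23.6 CPM in A375, with a corrected difference of -2.39 (-1.14 without the correction) that was -0.64 and not called (adjusted p = 0.102) on GC content averaged over transcripts. MOG fell in CHL1 from 30.5 and 28.9 CPM to 3.79 and 4.05 CPM, and had 0 counts in both A375 controls and 1 count in each treated library, so that no fold is given there. ACKR3, a chemokine receptor, fell in CHL1 from 92.4 and 106 CPM to 39.4 and 55.2 CPM and had 1 and 2 counts in the A375 controls and 6 and 10 with PRMT5i. The calls of MOG and ACKR3 were lost without 6 and 2 of the 8 libraries, with adjusted p up to 0.112 and 0.0883.

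The 4 named genes called in opposite directions in the 2 states had low or high GC contents. TRMT13 (34.3% GC), which encodes a tRNA methyltransferase, and LEPROTL1 (36.6%) were higher by 0.89 and 0.76 without the correction and had corrected differences of -0.47 and -0.42, and MAP3K10 (69.7%), a kinase, and ZNF787 (70.4%) had differences of -1.10 and -1.08 without it and of 0.46 and 0.51 with it. The CPM of TRMT13 went from 23.1 and 26.8 to 62.8 and 63.4 in CHL1 and from 33.4 and 32.2 to 49.3 and 40.3 in A375, and that of ZNF787 from 29.1 and 25.2 to 9.36 and 15.2 in CHL1 with 54.3 to 62.3 in A375. All 4 corrected calls were close to the threshold, with adjusted p between 0.0428 and 0.0471, and each was lost without at least 5 of the 8 libraries, with adjusted p up to 0.192. On GC content averaged over transcripts LEPROTL1 turned to 0.42 (adjusted p = 0.142), MAP3K10 and ZNF787 were not called, and TRMT13 remained called.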

How the data were processed

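Poly-A RNA of CHL1 and A375 cells was sequenced by the authors in paired ends. Per the labels and the study's methods, reads were aligned with HISAT (version 2.0.4 in the submitters' processing notes) to GRCh37 and counted with HTSeq, and weakly expressed genes were removed with edgeR. Strandedness is not given in the sources used here, so that a gene and its antisense partner cannot be told apart. The deposited counts are whole numbers with unequal totals for 20705 gene symbols, and were used as raw counts although the table's name points to normalized values.

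All 18 libraries were fitted with 9 group means by edgeR's quasi-likelihood test (edgeR 4.0.16, R 4.3.3, TMM, no filter, prior count 0.125), with Benjamini-Hochberg adjustment and a threshold of 0.05. CPM are TMM-scaled, and ± gives the standard error of a log2 value. This standard error was taken from the quasi-likelihood test and covers the spread between libraries as well as counting error. Fold changes that rest on a group with 3 counts or fewer in a library are not read as sizes. Replicates of a group differed by more than sampling noise.

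GC content came from the longest GENCODE 44 transcript on GRCh37. Of 20705 symbols, 15208 matched directly and 1148 through an older symbol, and 87.3% of genes averaging 1 CPM or more had a value. Per library, deviations of log2(CPM + 0.1) from the line's median library were fitted against GC content by loess (span 0.4), and the curve was entered as an offset. The pseudocount of 0.1 was chosen after one of 1 left a correlation of -0.24 between the difference and GC content. Scripts were tested on simulated data.

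Named genes were the 10 per direction with the largest corrected difference among genes called in both states, with a mean of at least 5 CPM and treated-minus-control differences of all library pairs that did not overlap between the lines in either state, 2 per direction called in opposite directions, a fixed set, and up to 3 per list and direction. The last part was narrowed, after values were seen, to members called in the same direction in both states. The comparison, the members and the lists were chosen with earlier results of these data known. DESeq2 1.42.0 and limma 3.58.1 gave alternatives. A GC value of coding sequence was not used here, and 1 gene of the fixed set is not reported here.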

Additional observations from a re-analysis of the deposited data

Results flagged for a closer look

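The results below were flagged because the test of the difference between the lines, edgeR's quasi-likelihood test with an adjusted p below 0.05, was passed. The difference was called for 8466 genes without and 3742 genes with the GC correction. Higher in CHL1 relative to A375 with the correction, in log2 units, were RNF165 (3.94), EEF1DP3 (3.52), PURG (3.04), FAM189A1 (2.99), PCBP1 (2.77), TICRR (2.77), NAA38 (2.59), BMP2 (2.57), DFNB31 (2.54) and GUSBP9 (2.53). Lower were MOG (-6.34), BTG2 (-3.66), ACKR3 (-3.41), CPM (-2.90), DUSP8 (-2.78), FAM198B (-2.52), CCNG1 (-2.42), C7orf49 (-2.39), HES2 (-2.37) and FAS (-2.22). The fitted values of RNF165, MOG and ACKR3 rest on libraries with 0 to 5 counts, depend on the prior count and are not sizes of a change.

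Called in opposite directions without and with the correction were TRMT13 (-0.47 with it), LEPROTL1 (-0.42), MAP3K10 (0.46) and ZNF787 (0.51). Of the genes fixed by name, PRMT5 (-0.84), WDR77 (-0.70), MDM2 (-1.62), CDKN1A (-1.85), BARD1 (0.95), BRIP1 (1.39) and CCNA2 (1.13) were called in the same direction in both states. The corrected calls of PRMT5 and WDR77 were lost without 5 and 2 of the 8 libraries.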

How the results depend on the processing

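The count of genes that differed between the lines changed most with the GC correction, from 8466 to 3742, and stayed between 6927 and 9837 under the other settings run without it at the same threshold. With the correction it was 2207 to 3276 without single libraries (2207 without CHL1 control replicate 1, 2293 without A375 control replicate 1 and 2356 without A375 PRMT5i replicate 2), 7994 without correction on the same genes, 1731 at an adjusted p below 0.01 and 1399 with a log2 difference of at least 1. In CHL1 the count was 4888 with the correction and 6965 with a log2 change of at least 1, and the corrected count was 2777 to 4837 without single libraries (2777 and 3188 without CHL1 control replicates 1 and 2), 9456 without correction, 2847 at 0.01 and 1024 at a log2 change of 1. In A375 it was 1754 with the correction, 1144 by DESeq2, 1238 by the likelihood ratio test, 1177 in the 8 libraries alone, 1613 in the 14 libraries with numbered replicates, 67 to 778 without single libraries, 175 at 0.01 and 389 at a log2 change of 1. The corrected A375 count was 519 to 1841 without single libraries (577 and 754 without A375 control replicates 1 and 2, and 1001 and 519 without A375 PRMT5i replicates 1 and 2), 679 without correction, 601 at 0.01 and 334 at a log2 change of 1. With 2 libraries per group, leaving out 1 leaves a lone library that is assumed to vary like the other groups.

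Replicates share only a number, since there are 2 per group and no label ties a number to a day or batch. Deviations of same-numbered libraries correlated at -0.38 to 0.46 in CHL1 and at 0.23 to 0.53 in A375. A replicate block gave 9837 genes for the difference, 1797 in A375 and, with the correction, 5000 and 3089.

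Of 89 named genes called with the correction, 61 kept their call without any single library and 28 lost it without at least 1. On GC content averaged over transcripts 18 lost it. Signs turned for the following values, where the cause was not tested. With the correction TRMT13 was -0.47, LEPROTL1 -0.42, MAP3K10 0.46, ZNF787 0.51, CLNS1A -0.07, RIOK1 -0.33 and E2F2 1.00, against 0.94, 0.82, -1.06, -1.04, 0.78, 0.25 and -0.07 without it on the same genes. On averaged GC content LEPROTL1 was 0.42, CLNS1A 0.084, COPRS 0.10, MDM4 -0.23 and MRI1 0.044. With length added COPRS was 0.084 and MDM4 -0.072, and with length and abundance COPRS was 0.12, MDM4 -0.15 and MITF -0.062. A curve from genes of at least 10 CPM gave COPRS 0.0046 and MITF -0.0098, and the 8 libraries alone gave MDM4 -0.014 and MITF -0.023. Without single libraries the corrected values that turned sign were 9.61e-04 to 0.016 for CLNS1A, 0.0597, 0.118, 0.15 and 0.289 for COPRS, -0.14, -0.126 and -0.0786 for MDM4, and -0.174, -0.0383 and -0.0377 for MITF. Without the correction RIOK1 lay between -0.0385 and 0.427 and E2F2 between -0.298 and 0.1125 without single libraries.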
